A study of Mus musculus with 20 samples.

Results

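The genes described here encode hepatocyte growth factor (Hgf) and its receptor Met, and the epidermal growth factor (EGF) receptors Egfr, Erbb2 and Erbb3 with their ligands Egf, Tgfa, Btc, Areg and Hbegf. The list was chosen by name, with earlier results of these data known. Each gene was read from the probe set that carries its symbol alone. Where there were several, the one with the highest mean over all arrays was taken. Of the 10 genes listed, 9 were measured, each by 1 probe set, among 19938 genes and 35511 probe sets on the array. Areg was not analysed here because no probe set carries its symbol in the annotation used. Transcript levels were profiled on 20 microarrays of C57bl6/J mouse islets, in 6 groups. Islet grafts came from under the kidney capsule of female hosts and held islets of female donors (P12.5 hosts, n = 3, and NP hosts, n = 3) or of male donors (P12.5 hosts, n = 3, and NP hosts, n = 3), where P12.5 is pregnancy day 12.5 and NP is not pregnant. Non-transplanted islets came from the pancreas of P12.5 female mice (n = 4) and NP female mice (n = 4). All graft hosts had been made diabetic with streptozotocin, a toxin for beta cells, and only hosts whose blood glucose was restored by the graft were mated; the islet donors of the non-transplanted groups are not described as treated. The labels mark the islet arrays as a reanalysis, so that transplantation, streptozotocin and any array batch cannot be told apart between grafts and islets. The replicates are called biological and no animals are named, so the p-values measure only the spread between these arrays.

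All values are log2 levels with 1 decimal. The arrays had medians of 5.9 to 6 and lower quartiles of 4.7 to 4.9, and precision is limited by how few arrays each group has. The brightest probe set read 13.4 in NP islets replicate 1 and at least 14.4 in each other array. The mean level of 15 beta cell markers lay between 10.2 and 10.9 in all arrays. In NP female grafts against NP islets 2 of the 15 were called lower, the beta cell transcription factor genes Mafa and Nkx6-1 (log2 differences of -0.73 and -0.66), and none higher. Of all probe sets 11% were called in that comparison, in either direction. The grafts carried other cells as well. The mean level of 57 kidney markers was 6.08 to 7.58 in the grafts and 5.80 to 5.93 in the islets, that of 21 stromal markers was 7.65 to 9.23 in the grafts and 6.28 to 6.64 in the islets, and that of 25 immune markers was 7.02 to 8.20 in the grafts and 5.96 to 6.17 in the islets. Acinar markers ran the other way, with 5.15 to 5.49 in the grafts and 7.43 to 9.18 in the islets (mean of 20 markers).

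HGF is a mesenchymal growth factor that is secreted as an inactive single chain and cleaved by serine proteases before it can bind MET, a receptor tyrosine kinase of epithelial cells. The EGF-like ligands are made as membrane proteins and released by ADAM metalloproteases. They bind EGFR (or ERBB3 in the case of neuregulins), and ERBB2, which has no known ligand of its own, acts as the preferred dimer partner. Both receptor systems feed the RAS-ERK and PI3K-AKT cascades, which are restrained by feedback inhibitors such as ERRFI1 (MIG6), the sprouty proteins and the dual-specificity phosphatases. In mouse islets, signalling through MET and EGFR is known as a stimulus of beta cell growth during pregnancy. Egf is also one of the abundant transcripts of the distal convoluted tubule of the kidney, which lies next to a graft under the capsule.

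The start-site windows of Met, Egf and Errfi1 are shown because the results below turn on these genes. Each is the run of 250 bases before an annotated start on the gene's own strand, from RefSeq (build GRCm38.p6), and capitals mark the GC box GGGCGG on either strand. Met is shown at chr6:17463707-17463956 (+ strand), Egf at chr3:129755323-129755572 (- strand) and Errfi1 at chr4:150854820-150855069 (+ strand).
Met: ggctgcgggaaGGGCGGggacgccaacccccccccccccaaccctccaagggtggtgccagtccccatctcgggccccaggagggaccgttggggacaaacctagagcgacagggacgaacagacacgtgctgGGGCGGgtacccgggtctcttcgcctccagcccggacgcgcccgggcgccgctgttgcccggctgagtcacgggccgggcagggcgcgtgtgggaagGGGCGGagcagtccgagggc
Egf: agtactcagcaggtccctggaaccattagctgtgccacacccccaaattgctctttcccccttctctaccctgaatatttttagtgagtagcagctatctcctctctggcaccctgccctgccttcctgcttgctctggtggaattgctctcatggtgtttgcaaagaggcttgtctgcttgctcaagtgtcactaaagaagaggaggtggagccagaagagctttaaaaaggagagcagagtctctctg
Errfi1: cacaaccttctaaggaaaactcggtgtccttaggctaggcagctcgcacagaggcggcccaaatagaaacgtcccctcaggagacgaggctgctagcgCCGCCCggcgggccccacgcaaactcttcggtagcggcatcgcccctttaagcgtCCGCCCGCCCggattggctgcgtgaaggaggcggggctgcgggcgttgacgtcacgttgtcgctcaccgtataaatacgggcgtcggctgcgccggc
The windows differ in base composition. The G and C content was 74.0% for Met, 50.4% for Egf and 64.8% for Errfi1, against a median of 52.4% over 32851 windows of all genes. The GC box occurred 3 times before Met and 3 times before Errfi1 and was not found before Egf, and 32.74% of all windows hold it. The spaced palindrome TTCNNNGAA, to which STAT5 and its relatives can bind, was searched on both strands because STAT5 acts downstream of the prolactin receptor. It was absent from all 10 windows of the 8 listed genes that were searched, and 7.02% of all windows hold it. Hbegf was left out of this search, and Erbb3 has no window in the source used. A second Egf window and a second Errfi1 window in the table held neither motif.

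Differences were tested with limma and a probe set was called at a Benjamini-Hochberg adjusted p under 0.05 over all probe sets and a change of at least 1.5-fold. Pregnancy alone called none of the 9 genes. In islets, 0 of 9 were called by limma at P12.5 against NP (3 at an unadjusted p under 0.05) where 0.724% of all probe sets were, and Egf alone passed the adjusted p when no fold minimum was set, as 1.34% of all probe sets did. Female grafts gave 0 of 9 called (0 at an unadjusted p under 0.05, background 1.7%), male grafts 0 of 9 (1 unadjusted, background 0.932%) and the donor sexes together 0 of 9 (2 unadjusted, background 3.96%). Hbegf was the 1 gene to pass the adjusted p in both sexes together without a fold minimum, where 13% of probe sets passed. More of them were called between grafts and islets. In NP female grafts against NP islets, Met and Egf were called (2 of 9, background 11%) and 4 of 9 passed the adjusted p alone (background 28.5%). In P12.5 female grafts against P12.5 islets, Met was called (1 of 9, background 4.05%) and 3 of 9 passed the adjusted p alone (background 6.75%).

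**Figure D1:**
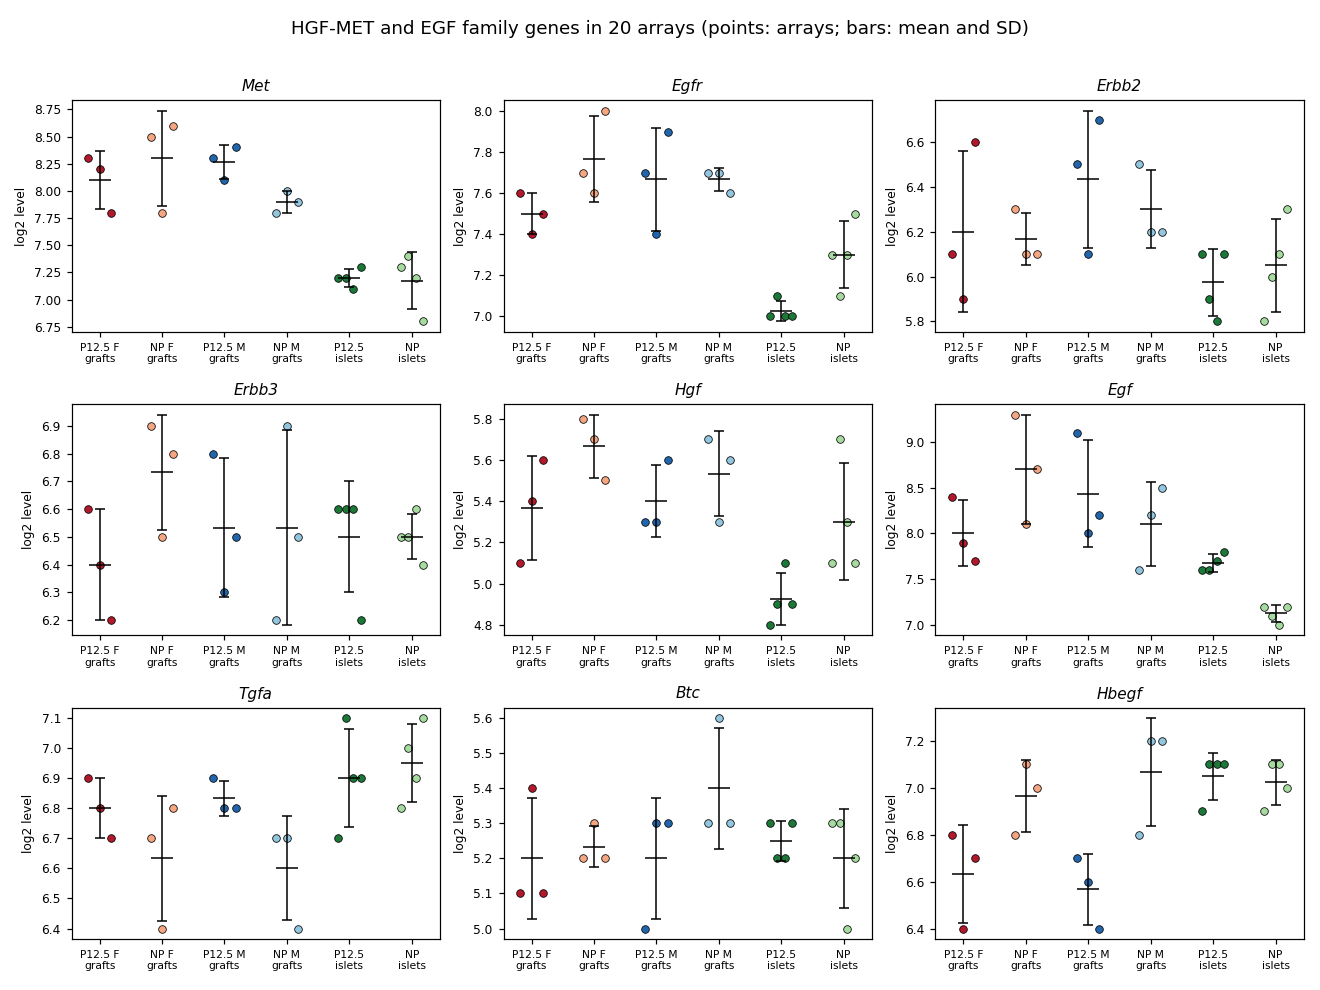
Log2 level of each of the 9 genes (y axis, 1 panel per gene, each with its own scale) in the 6 groups (x axis), with 1 point per array and bars for the mean and SD. Met lies at 7.8 to 8.6 in the grafts and at 6.8 to 7.4 in the islets, and Egf is the gene whose graft arrays scatter from 7.6 to 9.3.

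Met, the HGF receptor, was higher in grafts than in islets in both states. The P12.5 female grafts had log2 levels of 8.3, 8.2 and 7.8, the NP female grafts 8.5, 7.8 and 8.6, the P12.5 male grafts 8.3, 8.1 and 8.4 and the NP male grafts 7.8, 8.0 and 7.9. The islets had 7.2, 7.2, 7.1 and 7.3 at P12.5 and 7.3, 7.4, 7.2 and 6.8 in the NP state. Every graft array lay above every islet array, and among the 4 graft groups neighbours in the order of means overlapped in range. The log2 change was 1.13 ± 0.17 (SE) in NP female grafts against NP islets, 2.18-fold, with an adjusted p of 0.000279. It was 0.90 ± 0.17, 1.87-fold, in P12.5 female grafts against P12.5 islets, with an adjusted p of 0.00461. Both calls held without each of the 7 arrays in turn. Kidney, stromal and immune marker levels differed between the same groups and their part in the Met difference was not tested.

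Pregnancy left a Met difference near 0 in islets, with a log2 change of 0.03 ± 0.12 and a 95% interval of -0.26 to 0.31. In female grafts the change was -0.20 ± 0.20 and in male grafts 0.37 ± 0.20, with ranges that did not overlap in the male grafts (8.1 to 8.4 at P12.5, 7.8 to 8.0 in NP hosts). Neither passed the test (adjusted p of 0.618 and 0.340). The difference between the sexes in the response to pregnancy was 0.57 ± 0.29 (male minus female), adjusted p of 0.955, and that between female grafts and islets was -0.23 ± 0.25, adjusted p of 0.725.

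Egfr, the receptor for EGF, TGF-alpha, betacellulin, amphiregulin and HB-EGF, followed the same order of grafts over islets with smaller steps. Levels were 7.6, 7.4 and 7.5 in P12.5 female grafts, 7.7, 7.6 and 8.0 in NP female grafts, 7.0, 7.1, 7.0 and 7.0 in P12.5 islets and 7.3, 7.1, 7.3 and 7.5 in NP islets. Grafts and islets did not overlap within either state. The log2 change was 0.47 ± 0.12 in NP female grafts against NP islets (adjusted p of 0.00837) and 0.48 ± 0.12 in P12.5 female grafts against P12.5 islets (adjusted p of 0.0234), under the fold minimum in both. Without NP female grafts replicate 3 the first had an adjusted p of 0.0531, and without P12.5 islets replicates 1, 3 or 4 or P12.5 female grafts replicates 1 or 3 the second had an adjusted p of 0.05 to 0.083. In islets, P12.5 lay 0.28 ± 0.09 below NP on the log2 scale (adjusted p of 0.235).

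The co-receptors Erbb2 and Erbb3 varied little. Erbb2 ranged over 5.9 to 6.7 in the grafts and 5.8 to 6.3 in the islets, and Erbb3 over 6.2 to 6.9 in the grafts and 6.2 to 6.6 in the islets. Group ranges overlapped in every comparison of both genes. In female grafts the log2 change of Erbb3 at P12.5 was -0.33, with a 95% interval of -0.76 to 0.10. The lowest adjusted p of either gene in the comparisons of pregnancy or transplantation was 0.29, for Erbb3 in NP female grafts against NP islets.

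Hgf, the ligand of MET, read below the median of the arrays in every group, and P12.5 islets lay nearest the lower quartile. Levels were 4.8, 4.9, 5.1 and 4.9 in P12.5 islets, against 5.1, 5.7, 5.3 and 5.1 in NP islets. The groups touched at 5.1, and the log2 change of -0.38 ± 0.14 did not pass the test (adjusted p of 0.308). In grafts the levels were 5.1 to 5.6 at P12.5 and 5.5 to 5.8 in NP hosts for female donors, and 5.3 to 5.6 at P12.5 and 5.3 to 5.7 in NP hosts for male donors. The NP female grafts differed from NP islets by 0.37 ± 0.15 (adjusted p of 0.082) and the P12.5 female grafts from P12.5 islets by 0.44 ± 0.15 (adjusted p of 0.0909).

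Egf was the 1 member that passed the adjusted p with pregnancy in islets. All P12.5 islet arrays, at 7.6, 7.6, 7.7 and 7.8, lay above all NP islet arrays, at 7.2, 7.1, 7.0 and 7.2. The log2 change was 0.55 ± 0.08, or 1.46-fold, with an adjusted p of 0.0106 in the fit of the 8 islet arrays, so that it passed the p but not the fold minimum. The adjusted p stayed between 0.0248 and 0.0473 without each array in turn (0.0287 without NP islets replicate 1) and was 0.639 when all 20 arrays shared 1 estimate of the spread. Kidney marker levels overlapped between the same arrays, whose islets came from the pancreas. Their mean was 5.80 to 5.86 in P12.5 islets and 5.83 to 5.93 in NP islets, and Umod, the defining transcript of the thick ascending limb, read 5.3, 5.3, 5.6 and 5.4 in P12.5 islets and 5.2, 5.5, 5.4 and 5.5 in NP islets. The 1 kidney list member called in islets was Aqp4, a water channel, with a log2 change of 0.98 ± 0.09 (adjusted p of 0.00126). Acinar markers overlapped, with a mean level of 7.88 to 9.02 in P12.5 islets and 7.43 to 9.18 in NP islets. The source of the Egf difference in islets was not tested.

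Grafts had the highest and the most scattered Egf levels. The P12.5 female grafts read 8.4, 7.9 and 7.7 and the NP female grafts 9.3, 8.1 and 8.7, while the P12.5 male grafts read 9.1, 8.0 and 8.2 and the NP male grafts 7.6, 8.2 and 8.5. The arrays of each pair of groups overlapped. The log2 change at P12.5 was -0.70 ± 0.36 in female grafts (adjusted p of 0.294, 95% interval -1.49 to 0.09) and 0.33 ± 0.36 in male grafts (adjusted p of 0.643, 95% interval -0.46 to 1.12). The male value was 0 without P12.5 male grafts replicate 1 and 0.083 without NP male grafts replicate 1. The difference between these responses was 1.03 ± 0.51 with an adjusted p of 0.955. Against islets, the NP female grafts rose by 1.58 ± 0.27, 2.98-fold (adjusted p of 0.000636), a call that held without each of the 7 arrays in turn, whereas the P12.5 female grafts differed by 0.33 ± 0.27 (adjusted p of 0.502). The difference between female grafts and islets in the response to pregnancy was -1.25 ± 0.39, with an adjusted p of 0.188 and an interval of -2.06 to -0.44 for this gene alone.

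Kidney marker levels moved with Egf among the grafts. Their mean was 6.79, 6.08 and 6.79 in the P12.5 female grafts and 7.58, 7.14 and 7.22 in the NP female grafts, and 7.38, 6.29 and 7.10 in the P12.5 male grafts and 6.32, 7.22 and 7.04 in the NP male grafts. The array with the highest Egf level (NP female grafts replicate 1, 9.3) also had the highest kidney mean (7.58), and P12.5 male grafts replicate 1 came second in both. Over the 12 graft arrays Pearson's r between Egf and the kidney mean was 0.77 and Spearman's rho 0.83, given as a description because the arrays fall into groups. With the kidney mean as a covariate, the log2 change of Egf at P12.5 was -0.08 for female donors, 0.28 for male donors and 0.10 for both together, where the fit without it gave -0.18 for both. The kidney mean did not overlap between P12.5 and NP female grafts, so this fit separates kidney level from pregnancy poorly there. Umod itself read 7.7, 5.8 and 7.8 in P12.5 female grafts and 10.2, 8.4 and 9.5 in NP female grafts, and the sodium chloride cotransporter Slc12a3 of the distal convoluted tubule read 8.2, 6.6 and 8.7 in P12.5 female grafts and 10.1, 9.2 and 9.7 in NP female grafts. For Umod and Slc12a3, fewer kidney cells and less RNA per kidney cell cannot be told apart in these samples. The part of kidney cells in the Egf levels of the grafts was not tested beyond the correlation and the covariate.

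**Figure D2:**
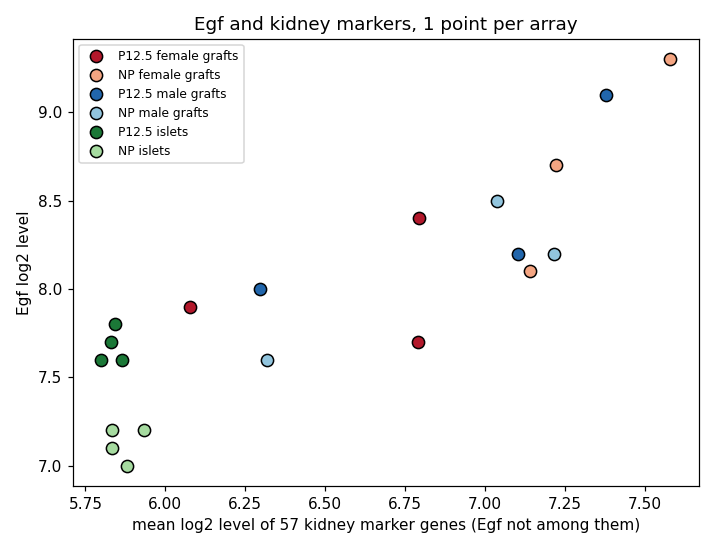
Egf log2 level (y axis) against the mean log2 level of 57 kidney marker genes (x axis), 1 point per array, coloured by group. The graft arrays run from 6.08 to 7.58 on the kidney axis. The islet arrays, taken from the pancreas, lie at 5.80 to 5.93 on it, and their P12.5 and NP groups sit apart in Egf.

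Hbegf, which encodes the heparin-binding ligand of EGFR and ERBB4, read lower in the P12.5 grafts of each donor sex. Levels were 6.8, 6.4 and 6.7 in P12.5 female grafts, against 6.8, 7.1 and 7.0 in NP female grafts. They were 6.7, 6.6 and 6.4 in P12.5 male grafts, against 6.8, 7.2 and 7.2 in NP male grafts. The female groups met at 6.8 and the male groups did not overlap. The log2 change was -0.42 ± 0.11 in both sexes together, 1.34-fold, with an adjusted p of 0.0296, and neither sex passed alone (-0.33 ± 0.15, adjusted p of 0.238, in female grafts and -0.50 ± 0.15, adjusted p of 0.124, in male grafts). The adjusted p was 0.0545 to 0.07 when any of 7 arrays was left out (P12.5 female replicate 2, P12.5 male replicates 2 and 3, NP female replicates 2 and 3, NP male replicates 2 and 3), and 0.105 with a change of -0.34 when the kidney mean was a covariate.

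In islets the Hbegf levels overlapped, with 6.9, 7.1, 7.1 and 7.1 at P12.5 and 6.9, 7.1, 7.1 and 7.0 in the NP state (log2 change of 0.03 ± 0.08). The P12.5 female grafts lay below the P12.5 islets, by -0.42 ± 0.12 with an adjusted p of 0.0477. That p was 0.0995 to 0.195 without P12.5 islets replicates 2, 3 or 4 or P12.5 female grafts replicates 2 or 3. The NP female grafts differed from NP islets by -0.06 ± 0.12, and the difference between female grafts and islets in the response to pregnancy was -0.36 ± 0.17 (adjusted p of 0.359).

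Tgfa and Btc, the remaining EGFR ligands, stayed within narrow ranges. Tgfa read 6.7 to 6.9 in P12.5 female grafts and 6.4 to 6.8 in NP female grafts, 6.8 to 6.9 in P12.5 male grafts and 6.4 to 6.7 in NP male grafts, and 6.7 to 7.1 in P12.5 islets and 6.8 to 7.1 in NP islets. Its change in male grafts, whose ranges did not overlap, was 0.23 ± 0.13 (adjusted p of 0.340). In NP female grafts against NP islets it was -0.32 ± 0.12 with an adjusted p of 0.0491, which was 0.0669 to 0.238 without NP islets replicates 2, 3 or 4 or NP female grafts replicates 1 or 2. Btc read 5.0 to 5.6 in the grafts and 5.0 to 5.3 in the islets, below the median of the arrays, and its largest change was -0.20 ± 0.13 at P12.5 in male grafts (adjusted p of 0.425).

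**Figure D3:**
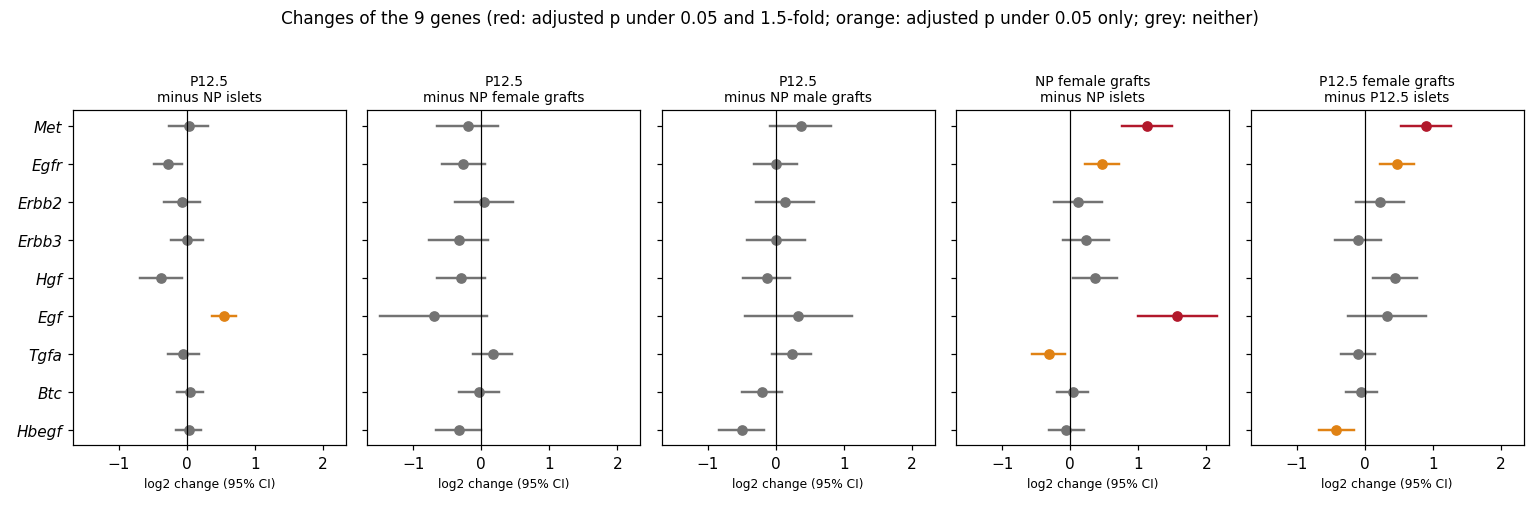
Log2 change with its 95% interval (x axis) for each of the 9 genes (y axis) in 5 comparisons, 1 panel each, where red marks a called gene, orange an adjusted p under 0.05 without the fold minimum and grey neither. Red points appear for Met and Egf in NP female grafts against NP islets and for Met in P12.5 female grafts against P12.5 islets.

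Donor sex called none of the 9 genes. Limma called 0 of 9 in male against female grafts of NP hosts (0 at an unadjusted p under 0.05, background 0.0141%) and 0 of 9 in male against female grafts of P12.5 hosts (0 unadjusted, background 0.0113%). The interaction of donor sex with pregnancy called 0 of 9 (0 unadjusted), as it called 0% of all probe sets. That of transplantation with pregnancy called 0 of 9 (1 unadjusted, Egf) where 0.0507% of all probe sets were called. The largest sex difference among the 9 was that of Egf, at -0.60 ± 0.36 in NP hosts and 0.43 ± 0.36 in P12.5 hosts (male minus female), and Met followed in NP hosts with -0.40 ± 0.20. None of these passed the test (adjusted p of 0.977 for each).

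The genes around the receptors were counted in 8 lists with 121 measured members of 131 listed: other receptors, other EGF-like ligands, proteins that activate or inhibit HGF, shedding proteases, adaptors with the RAS-ERK cascade, the PI3K-AKT cascade, receptor inhibitors, and genes that ERK induces. In P12.5 against NP islets 1 of 121 was called (0.826%), in female grafts 2 (1.65%), in male grafts 2 (1.65%), in both sexes together 4 (3.31%), in NP female grafts against NP islets 10 (8.26%) and in P12.5 female grafts against P12.5 islets 5 (4.13%). These shares lie near those of all probe sets given above. No list had more than 2 members called in 1 direction in a comparison, apart from 3 ERK-induced genes in P12.5 female grafts against P12.5 islets.

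Errfi1, whose product binds and inhibits the EGFR kinase, was the 1 pathway gene called in islets. Its levels were 8.1, 8.0, 8.0 and 8.1 in P12.5 islets, against 8.7, 9.1, 8.9 and 8.4 in NP islets. In female grafts they were 8.0, 8.3 and 7.9 at P12.5, against 8.6, 9.2 and 9.2 in NP hosts, and in male grafts 8.1, 7.8 and 8.4 at P12.5, against 8.8, 9.4 and 9.4 in NP hosts. The P12.5 arrays lay below the NP arrays in all 3 settings without overlap. Errfi1 is described because it was called in these same data, and the share of all probe sets without overlap was not computed. Errfi1 fell by 0.73 on the log2 scale (SE 0.14) in islets, 1.65-fold, with an adjusted p of 0.0368, and by 1.10 (SE 0.22) in male grafts with an adjusted p of 0.0463. The change in female grafts, -0.93 ± 0.22, had an adjusted p of 0.058. In both sexes together Errfi1 fell by 1.02 (SE 0.16), 2.02-fold, with an adjusted p of 0.00495 that stayed between 0.00316 and 0.0153 without each of the 12 arrays in turn and was 0.0221 with the kidney mean as a covariate.

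The islet call of Errfi1 was lost without any 1 of the islet arrays other than NP islets replicate 4 (adjusted p of 0.0761 to 0.122, and 0.0935 without NP islets replicate 1). The male graft call was lost without any 1 of the 6 arrays other than NP male grafts replicate 1 (adjusted p of 0.0657 to 0.148). The response to pregnancy differed by -0.17 ± 0.32 between donor sexes (adjusted p of 0.98) and by -0.21 ± 0.27 between female grafts and islets (adjusted p of 0.778).

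**Figure D4:**
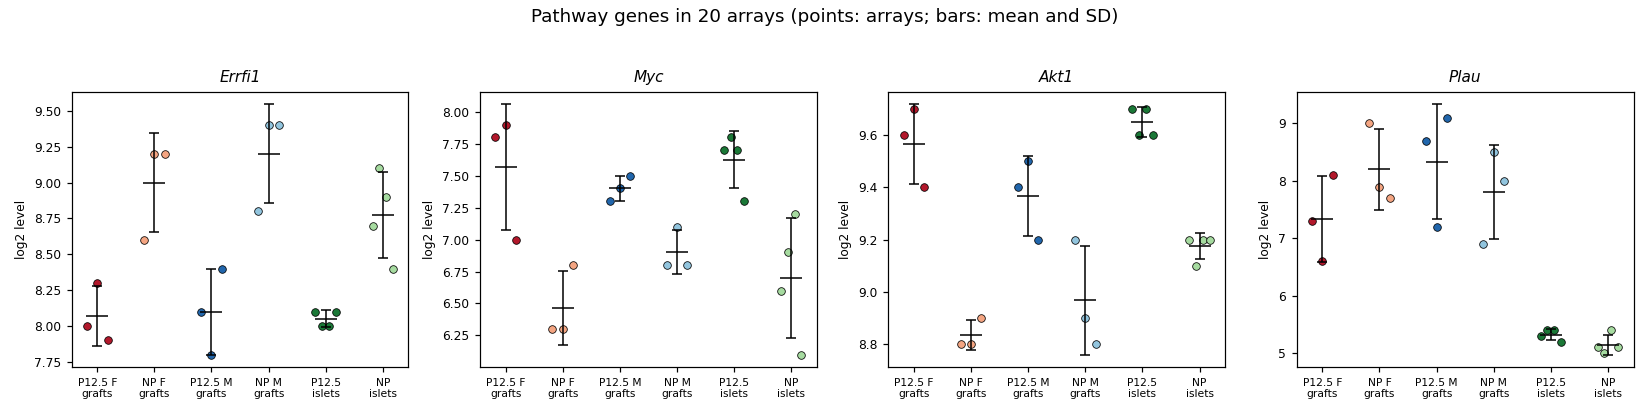
Log2 levels (y axis, own scale per panel) of Errfi1, Myc, Akt1 and Plau in the 6 groups (x axis), with 1 point per array and bars for the mean and SD. Errfi1 lies at 7.8 to 8.4 in every P12.5 array and at 8.4 to 9.4 in every NP array.

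Other pathway genes were called with pregnancy in grafts only in part of the comparisons. Myc, a growth regulator induced by ERK, rose in both sexes together by 0.80 ± 0.16 (adjusted p of 0.0116), with 7.8, 7.9 and 7.0 in P12.5 female grafts and 6.3, 6.3 and 6.8 in NP female grafts. In female grafts alone the change was 1.10 ± 0.22 (adjusted p of 0.0366), and in male grafts, with 7.3, 7.4 and 7.5 at P12.5 and 6.8, 7.1 and 6.8 in NP hosts, it was 0.50 ± 0.22 (adjusted p of 0.248). Spred2, an inhibitor of RAS-ERK signalling, rose in both sexes together by 0.72 ± 0.14 (adjusted p of 0.0109). Etv1, an ETS factor that ERK phosphorylates, fell by 0.68 on the log2 scale (SE 0.16, adjusted p of 0.0217), and 0.0534 without NP male grafts replicate 3. The kinase gene Akt1 rose in female grafts by 0.73 ± 0.13 (adjusted p of 0.0252), and Ptpn1, a phosphatase of receptor kinases, fell in male grafts by 0.63 on the log2 scale (SE 0.11, adjusted p of 0.0227). In both sexes together their changes were 0.57 ± 0.09 (adjusted p of 0.00609) and -0.47 ± 0.08 (adjusted p of 0.00578), under the fold minimum. Male grafts read 9.2 to 9.5 for Akt1 at P12.5 and 8.8 to 9.2 in NP hosts. Female grafts read 7.7 to 7.9 for Ptpn1 at P12.5 and 8.0 to 8.2 in NP hosts. The female graft calls of Akt1 (adjusted p of 0.0548 to 0.0975) and Myc (0.0518 to 0.126) were lost without any 1 of the 6 arrays other than P12.5 female grafts replicate 3, and that of Ptpn1 (0.0511 to 0.0752) without P12.5 male grafts replicates 2 or 3 or NP male grafts replicates 2 or 3.

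Immune markers were among the genes called in the same graft comparisons. In male grafts 3 of 25 were called lower at P12.5 (background 0.932%, median log2 change of -0.43), with a mean level of 7.30 to 7.58 in P12.5 male grafts and 7.67 to 8.20 in NP male grafts. The same mean level was 7.02 to 7.85 in P12.5 female grafts and 7.22 to 7.58 in NP female grafts. In female grafts 7 of 22 proliferation markers were called higher (background 1.7%), and in male grafts 1 of 22 (background 0.932%). The kidney lists had no member called in female grafts. Their median log2 change in female grafts was -1.45 for 22 proximal tubule and -0.80 for 17 distal tubule markers. It was -0.10 for 12 collecting duct and 0.18 for 6 podocyte markers. In both sexes together 5 of 25 immune, 1 of 17 distal tubule and 1 of 22 proximal tubule markers were called lower. So were 1 of 15 beta cell and 1 of 8 other endocrine markers, and none of these lists had a member called higher. Of the proliferation markers 4 of 22 were called higher, as was 1 of 12 ductal markers, and none lower. The background was 3.96%, and the shares of both tubule lists lie near it. The 14 endothelial markers had a median log2 change of 0.62 in male grafts and 0.17 in female grafts. The part of these cells in the pregnancy changes of Errfi1, Myc, Spred2, Etv1, Akt1 and Ptpn1 was not tested beyond the kidney covariate.

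In islets, Akt1 passed the adjusted p under the fold minimum, with 9.7, 9.6, 9.7 and 9.6 at P12.5 and 9.2, 9.1, 9.2 and 9.2 in the NP state (log2 change of 0.48 ± 0.07, adjusted p of 0.00875). Jun did so as well, with 7.5, 7.1, 7.1 and 7.2 at P12.5 and 6.7, 6.7, 6.6 and 6.7 in the NP state (0.55 ± 0.10, adjusted p of 0.0293). These 2 rises and the fall of Errfi1 are all that passed among the 121 genes in islets. Myc and Etv1 did not pass there. Their islet arrays did not overlap between the states, and how many of all probe sets do so was not computed. Myc read 7.3 to 7.8 at P12.5 and 6.1 to 7.2 in the NP state. Etv1 read 8.5 to 8.7 at P12.5 and 8.8 to 9.1 in the NP state. Spred2 and Ptpn1 overlapped between the same arrays. The proliferation list, by contrast, had 14 of 22 measured members called higher at P12.5 in islets and none lower (background 0.724%).

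Between grafts and islets, 2 of 12 measured HGF activation and inhibition genes and 2 of 16 shedding genes were called higher in the NP comparison (background 11% in both directions), and 1 of 12 and 0 of 16 in the P12.5 comparison (background 4.05%). Plau, which encodes urokinase, a protease that can activate HGF, read 7.3, 6.6 and 8.1 in P12.5 female grafts and 9.0, 7.9 and 7.7 in NP female grafts, against 5.3, 5.4, 5.4 and 5.2 in P12.5 islets and 5.1, 5.0, 5.4 and 5.1 in NP islets. It rose by 3.05 ± 0.43 in NP female grafts against NP islets (adjusted p of 0.00015) and by 2.01 ± 0.43 in P12.5 female grafts against P12.5 islets (adjusted p of 0.00958, and 0.0764 without P12.5 female grafts replicate 3). Hpn, which encodes the HGF-activating protease hepsin, rose in the NP comparison by 0.88 ± 0.25 (adjusted p of 0.0136, and 0.0692 without NP female grafts replicate 1). The sheddases Adam17 and Adam10 rose there by 0.69 ± 0.10 and 0.60 ± 0.10, the second of which was under the fold minimum without NP islets replicate 4 (0.57) or NP female grafts replicate 3 (0.55).

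Among the inhibitors and targets, Lrig3, of a family of transmembrane receptor regulators, rose in both states (0.89 ± 0.14 NP, adjusted p of 0.000358, and 0.84 ± 0.14 at P12.5, adjusted p of 0.00165). In the NP comparison the PI3K subunit gene Pik3r1 (0.78 ± 0.20), Jun (0.73 ± 0.16) and the ERK phosphatase gene Dusp6 (0.63 ± 0.14) rose, whereas the endothelial phosphatase gene Ptprb (-0.87 ± 0.27) and Spred2 (-0.64 ± 0.16) fell. Dusp6 was under the fold minimum without NP islets replicate 4 (0.57) or NP female grafts replicate 1 (0.48), Spred2 without NP female grafts replicate 1 (-0.43), and Ptprb had an adjusted p of 0.0532 to 0.0747 without NP islets replicate 2 or NP female grafts replicates 2 or 3. In the P12.5 comparison the immediate early genes Ier3 (0.93 ± 0.24), Fos (0.84 ± 0.21) and Egr1 (0.68 ± 0.16) rose. All 3 were called no longer without P12.5 female grafts replicates 1 or 3 or P12.5 islets replicate 2, Ier3 also without P12.5 islets replicate 3 and Egr1 also without P12.5 islets replicate 4 (adjusted p of 0.0543 to 0.129).

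Markers of other cells moved in the same comparisons. In NP female grafts against NP islets, 18 of 22 proximal tubule markers were called higher (median log2 change of 2.54), as were 9 of 17 distal tubule markers (0.68), 14 of 21 stromal markers (1.74) and 20 of 25 immune markers (1.25). Of 20 acinar markers 16 were called lower (-3.60) and of 14 endothelial markers 8 (-0.69), where the median over all probe sets was -0.08 and 11% of them were called. In P12.5 female grafts against P12.5 islets the counts were 5 of 22, 3 of 17, 13 of 21 and 17 of 25 called higher and 16 of 20 and 3 of 14 called lower in the same order of lists (background 4.05%). The other kidney lists differed less. The mean of 12 collecting duct markers was 6.475 in NP female grafts and 6.08 in NP islets. That of 6 podocyte markers was 6.31 and 6.25. The part of these cells in the changes of Met, Egfr, Plau and the other genes named was not tested.

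The genes whose pattern over the 20 arrays was most like that of each member were found by Pearson's r among 4981 genes that span at least 1 log2 unit, as a description of arrays that share their groups. Met was followed most closely by Nudt19 (0.93), Gramd1b (0.90) and Fgf1 (0.90), Egfr by Macf1 (0.95), Ptprd (0.93) and Frmd4b (0.92), and Egf by Retsat (0.89), Abca13 (0.89) and Frrs1 (0.89). Over the 12 graft arrays alone, the nearest to Egf were Cdhr2 (0.89), Tmem116 (0.88) and Prss8 (0.88). Hgf ran closest to Prkg1 (0.85), Tfpi (0.84) and Cd14 (0.83), Erbb2 to Adamts15, Gda and Hoxd4 (0.88 to 0.89), and Erbb3 to Aldh6a1 (0.85), Hnf4a (0.81) and Mgam (0.79). The closest r was 0.85 for Hbegf (Ate1), 0.87 for Tgfa (Nanos2) and 0.70 for Btc (Klra8).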

How the data were processed

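The deposited log2 values were made by the authors with robust multichip analysis (background adjustment, quantile normalization and a summary per probe set) of mouse MoGene 1.0 ST arrays; they are rounded to 1 decimal, and the genome build behind the probe annotation is not given in the sources used here. All 20 arrays were grouped by their labels. Symbols came from the array annotation: 21789 probe sets carry 1 symbol, 1621 several and 12101 none. Tests used limma 3.58.1 in R 4.3.3 (lmFit, eBayes, groups as terms): the islet comparison on 8 arrays, graft comparisons on 12, and graft against islet comparisons on all 20, with two-sided p-values adjusted over 35511 probe sets. The procedure was tested on simulated data. Errors are SE of the fit unless stated. Where groups are said not to overlap, the share of all probe sets that do the same was not computed.

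The members and gene lists were chosen with earlier results of these data known. The rule named the members, the called pathway genes of a comparison (at most 5 in each direction) and for each member the 3 genes of highest r. Named beyond it, after their values were seen, were Adam10, Adam17 and Dusp6 in grafts against islets, and single markers. In islets, Akt1, Jun, Myc, Etv1, Spred2 and Ptpn1 were named beyond it as well. Promoter windows came from RefSeq GRCm38.p6. The 46 same-numbered array pairs deviated together with r from -0.289 to 0.375, and 7 of them exceeded 0.1. Pairs of unlike number were not computed, so these values cannot decide whether the numbers pair the samples. No 2 arrays held the same values.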

Additional observations from a re-analysis of the deposited data

Results flagged for a closer look

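Among the 18 sets of 4 islet arrays tested for a value far from the rest (9 genes in P12.5 and NP islets), 3 passed the limit of Dixon's test. Egfr read 7.1 in P12.5 islets replicate 2 and 7.0 in the other 3 arrays. Hbegf read 6.9 in P12.5 islets replicate 1 and 7.1 in the others. Erbb3 read 6.2 in P12.5 islets replicate 4 and 6.6 in the others. In each case the other 3 arrays are identical at 1 decimal, so the gap fills the whole range whatever its size. The rate of about 1 in 20 that chance gives holds for unrounded values and cannot be applied to these sets.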

How the results depend on the processing

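Precision is limited by 3 or 4 arrays a group and by rounding to 1 decimal. Across array medians subtracted, a second quantile normalization, low probe sets left out, other arrays in the fit, the replicate block, the kidney covariate and each array left out, the number of members called changed only without the fold minimum. It was then 1 in islets, 1 in grafts of both sexes, 4 in NP female grafts against NP islets and 3 in P12.5 female grafts against P12.5 islets. No other probe set of a member could be tried. With the replicate block, the islet changes of Egf (0.55) and Errfi1 (-0.73) had adjusted p of 0.0748 and 0.156, and whether the numbers pair the arrays is not known. Signs turned for Met in islets without P12.5 islets replicate 4 (-0.0083) and without NP islets replicate 4 (-0.10), for Egf in both sexes with the kidney covariate (0.10), and for the sex interaction of Errfi1 without NP female grafts replicate 1 (0.033), where leaving out each array gave -0.37 to 0.033. The cause was not tested. Of 949 values of named genes under alternatives, 869 kept their direction and side of the threshold, 67 lost and 9 gained the call, and 4 turned. The threshold is that of a call, so an uncalled change that lost only its adjusted p counts among the 869. The alternatives include the setting without a fold minimum, where a call cannot be lost. Apart from single arrays left out, calls were lost as follows (adjusted p). The fit of all 20 arrays lost Errfi1 in islets (0.0787). The kidney covariate lost Errfi1 in male grafts (0.0587), Akt1 (0.276) and Myc (0.313) in female grafts and Etv1 in both sexes (0.061). In female grafts the kidney mean did not overlap between the states, so that fit separates kidney level from pregnancy poorly. Fits of only the groups compared lost Errfi1 (0.122) and Ptpn1 (0.104) in male grafts, Myc in female grafts (0.0965), and Fos (0.0764), Egr1 (0.0571) and Ier3 (0.0766) in P12.5 female grafts against P12.5 islets. The replicate block lost Errfi1 (0.0627) and Ptpn1 (0.0639) in male grafts, Myc in female grafts (0.07) and Egr1 (0.0563), and took Adam10 and Dusp6 under the fold minimum (log2 changes of 0.58 and 0.57), as a second quantile normalization did Adam10 (log2 change of 0.57). Among changes that passed the adjusted p alone, Egf was lost in islets in the fit of all 20 arrays (0.639), Hbegf in both sexes with the block (0.0558) and the kidney covariate (0.105) and, at P12.5 against islets, with the block (0.0945) and with only those groups (0.0649), and Tgfa with array medians subtracted (0.0765), the block (0.113) and only those groups (0.104). Counts over all probe sets ranged with the alternatives from 132 to 475 in islets (257 as reported), from 7 to 1720 in female grafts (602), from 13 to 1059 in male grafts (331), from 721 to 4602 in both sexes (1408), from 3335 to 10136 in NP female grafts against NP islets (3911), from 771 to 2396 in P12.5 female grafts against P12.5 islets (1438), from 4 to 25 and 4 to 49 for donor sex in NP (5) and P12.5 hosts (4), from 0 to 1 for its interaction with pregnancy (0) and from 1 to 231 for that of transplantation (18).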
